A study of Mus musculus with 4 samples.

Results

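The genes described here had exon reads in reprogrammed GFP-positive mouse cells and none in cells labelled as the same kind without reprogramming. They were selected on measured values: a gene was taken when it had 0 exon reads in both libraries of the cells without reprogramming, 20 or more exon reads in each library of the GFP-positive cells and an exon length above 0. Of the 32555 genes with an exon length above 0, 122 met this rule, and 119 were kept after Hs3st6, Cacna1h and Kcnq1 were dropped. The rule used the same counts in both groups that a comparison would use, so the absence of exon reads in the cells without reprogramming is how the genes were chosen and not a result.

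The 6F group held 2 libraries of adipose-derived regenerative cells of passage 2 that had received 6 lentiviral factors, which the labels do not name, and that were sorted for GFP 3 weeks later. Their strain label is C57BL/6-Tg (Myh6-EGFP) MG3Tm; MG3, in which the promoter of Myh6, the alpha myosin heavy chain of heart muscle, drives EGFP, so the sort kept cells in which that promoter was active. The ADRC group held 2 libraries of adipose-derived regenerative cells, mesenchymal cells grown from mouse fat, of passage 2, taken at 8 weeks of age and with the strain label C57BL/6J. The ADRC titles mention a GFP positive control, which is at odds with that strain label. Transduction, sorting and the strain label all differ between the groups and cannot be told apart. No weeks in culture are listed for ADRCs and no age for 6F cells. Any difference in these could not be told apart from the others either. Nothing in the labels ties the libraries to separate cultures, and the spread between them may be technical. The libraries are called a and b without order, since the data columns carry no replicate number, and 6F library a carries another sequencing lane label than the other 3.

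A gene without a read in one group has no fold change, only a bound. The bound sets the pooled 6F level against a floor of 3 reads over both ADRC libraries, so "at least 10-fold higher" means that the 6F level was 10 times what 3 such reads would have given. The floor was 0.659 CPM in ADRCs, where CPM are exon reads scaled to 1000000 per library, on library sizes adjusted by the trimmed mean of M values (TMM). Bounds and floors cover the counting error of the ADRC zeros only. The counting error of the 6F reads and the spread between libraries are not covered. The 6F libraries a and b held 7593772 and 6986223 exon reads, and the ADRC libraries a and b 2273897 and 2662128, so the zeros were read at the lower depth. Without ADRC library a every bound falls to 0.543 of its value, and without ADRC library b to 0.457 of it. Where the 6F libraries differed 2-fold or more in CPM, the bound is also given on the lower 6F library alone.

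Reprogramming by introduced transcription factors is meant to switch on genes of one cell type, here with a heart muscle reporter, and can also switch on genes of unrelated tissues. Genes silent in a given cell type are often those with a narrow range of tissues, such as hormones, neurotransmitter receptors, germ cell proteins and liver enzymes. Sequencing the RNA of a whole population counts transcripts over all its cells, so in these bulk samples fewer cells of a type and less RNA per cell cannot be told apart.

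The members were mostly read at low counts and are known from many tissues. They took 15467 exon reads in 6F library a and 10207 in 6F library b, which is 0.204% and 0.146% of all exon reads there. Pooled over both 6F libraries, a member had 43 to 1903 reads, with a median of 108, and 52 of the 119 had under 100. The bound was lowest for Gm4951, at least 4.14-fold higher, and highest for Prnd, at least 183-fold higher, with a median of 10.4. It was 5 or more for 112 members, 10 or more for 65, 20 or more for 28 and 50 or more for 11. If ADRCs had held each gene at its 6F level, 12.4 to 550 reads would have been counted there, with a median of 31.2. The edgeR quasi-likelihood test called 118 of the 119 higher in 6F cells (Benjamini-Hochberg adjusted p under 0.05), where 24.2% of all 12573 tested genes were called higher. That count follows from the rule and nothing is read from it. In the authors' deposited table the false discovery rate was under 0.05 for 4 members, where 0.501% of the 32555 genes passed it as higher. It was 1 for 106 members. The share of all genes at that value was not counted, so nothing is read from the 106.

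By known role the largest named groups were 14 genes of the nervous system, 11 enzymes and metabolite carriers and 11 secreted hormones, signals and plasma proteins. There were also 9 genes of germ cells, meiosis and cilia, 8 cell surface receptors, 7 genes of matrix and cell adhesion, 3 of striated muscle, 3 transcription factors and 3 of immune cells. Another 19 were protein-coding genes of other roles and 31 had no assigned role. The roles were assigned from general knowledge of each gene after the members were known. Of the 119, 104 were annotated as protein-coding, 7 as antisense, 4 as processed transcripts, 2 as lincRNA and 2 as unprocessed pseudogenes, 1 of them transcribed. The protein-coding share was 87.4%, against 97.8% of genes in GENCODE M21 among the 11565 with 20 or more reads in each 6F library. Members lay on 20 chromosomes, and 7 lay on X (5.88%, against 3.25% of those 11565 genes). Within 100000 bases of each other lay only Gm15674 and Gm15675, which overlap on chromosome 1.

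**Figure D1:**
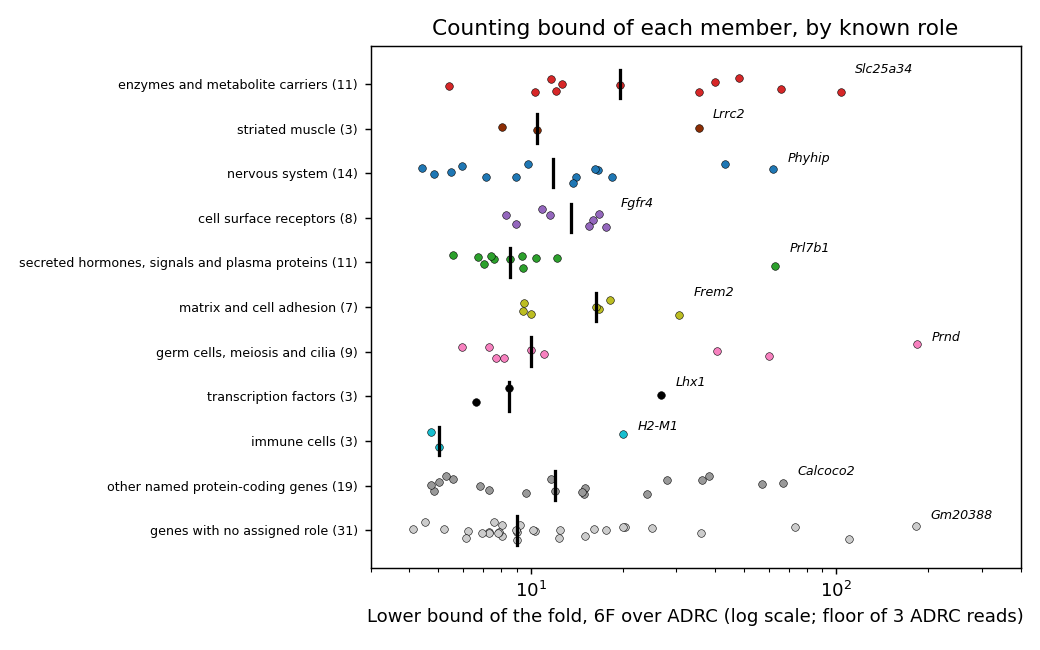
Lower bound of the fold of each of the 119 members, 6F over ADRC, on a log axis, by known role with the number of members in brackets; each point is 1 gene, the black bar is the median of the role, the gene with the highest bound is named, and points are spread vertically so that they can be seen. Enzymes and carriers had the highest median, 19.6, and immune cell genes the lowest, 5.01.

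Promoter sequences were at hand for 77 members, as 91 sequences of RefSeq on GRCm38.p6, each from 250 bases before to 50 bases after a gene's start. They are shown here for the most read enzyme genes that share no exon bases with another gene, for a pair of muscle genes, and for Col13a1 and Il13ra2, which hold the same motif as one of the muscle genes. Each runs 5′ to 3′ on the gene's strand, and capitals mark a motif: CACCC in Slc25a34 and Cyp4f14, TATAAA in Lrrc2, and a site of the MEF2 family of muscle transcription factors in Asb18, Col13a1 and Il13ra2. Motifs were searched on both strands, so Slc25a34 and Lrrc2 show the reverse complement of the motif.
Slc25a34, chr4:141623785-141624084, minus strand: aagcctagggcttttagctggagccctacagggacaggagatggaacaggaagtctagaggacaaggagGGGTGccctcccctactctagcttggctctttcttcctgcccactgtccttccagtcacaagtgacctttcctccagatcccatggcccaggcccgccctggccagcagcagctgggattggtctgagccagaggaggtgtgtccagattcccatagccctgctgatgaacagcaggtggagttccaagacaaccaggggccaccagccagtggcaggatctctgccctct
Cyp4f14, chr17:32917293-32917592, minus strand: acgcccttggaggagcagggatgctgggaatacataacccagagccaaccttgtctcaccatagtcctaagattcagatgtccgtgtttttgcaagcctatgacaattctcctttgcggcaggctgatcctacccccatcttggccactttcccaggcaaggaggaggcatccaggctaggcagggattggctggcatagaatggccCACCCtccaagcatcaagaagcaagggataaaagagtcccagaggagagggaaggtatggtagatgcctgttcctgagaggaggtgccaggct
Lrrc2, chr9:110951295-110951594, plus strand: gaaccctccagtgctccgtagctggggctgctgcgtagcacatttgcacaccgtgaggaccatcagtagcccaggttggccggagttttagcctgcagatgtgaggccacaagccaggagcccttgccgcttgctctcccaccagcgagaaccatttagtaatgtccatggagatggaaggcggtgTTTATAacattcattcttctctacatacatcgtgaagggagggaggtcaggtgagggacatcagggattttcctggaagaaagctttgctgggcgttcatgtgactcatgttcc
Asb18, chr1:90014617-90014916, minus strand: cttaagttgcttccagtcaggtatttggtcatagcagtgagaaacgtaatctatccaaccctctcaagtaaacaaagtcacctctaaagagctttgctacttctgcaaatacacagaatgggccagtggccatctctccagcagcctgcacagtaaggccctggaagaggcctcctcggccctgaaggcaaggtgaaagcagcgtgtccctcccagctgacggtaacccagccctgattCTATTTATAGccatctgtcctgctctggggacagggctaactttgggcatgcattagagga
Col13a1, chr10:61979059-61979358, minus strand: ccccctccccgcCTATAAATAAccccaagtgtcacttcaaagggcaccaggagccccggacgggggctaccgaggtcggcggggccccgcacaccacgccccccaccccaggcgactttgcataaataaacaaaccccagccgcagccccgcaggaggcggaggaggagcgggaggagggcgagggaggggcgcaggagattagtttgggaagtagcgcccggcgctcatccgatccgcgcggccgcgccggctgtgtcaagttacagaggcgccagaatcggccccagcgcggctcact
Il13ra2, chrX:147429143-147429442, minus strand: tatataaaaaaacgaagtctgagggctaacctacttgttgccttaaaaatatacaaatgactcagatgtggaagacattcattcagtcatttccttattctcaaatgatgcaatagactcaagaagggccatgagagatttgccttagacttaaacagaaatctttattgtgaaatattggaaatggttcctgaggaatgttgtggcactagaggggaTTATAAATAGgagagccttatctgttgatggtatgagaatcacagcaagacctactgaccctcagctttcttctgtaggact
The MEF2 site was held by 8.79% of the members' promoters, those of 8 genes, against 3.19% of all 32851 promoters in the table. In the 3 shown, the MEF2 site contains TATAAA on one of its strands and starts from 11 bases (Asb18) to 238 bases (Col13a1) before the gene's start. TATAAA was held by 17.6% of members' promoters against 13.6% of all, and CACCC by 69.2% against 57.5%. The GATA motif, AGATAA or TGATAA, was held by 13.2% of members' promoters against 18.6% of all. The CArG box, which serum response factor binds, was held by 0 members' promoters against 1.63% of all. A match is a description of letters and was not tested.

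As striated muscle genes 3 members were grouped. Each member was given 1 role, so a member also known from muscle may be counted under another role. The 3 genes dropped from the rule were not grouped. Lrrc2, a leucine-rich repeat protein of heart and skeletal muscle, had 162 and 206 reads in 6F libraries a and b, against 0 and 0 in ADRC libraries, and was at least 35.5-fold higher. Asb18, an ankyrin repeat protein of muscle, had 53 and 31 reads in 6F cells, with 0 in ADRCs, and was at least 8.09-fold higher. Both lay within a factor of 2 between the 6F libraries. Neither is in the list of 30 heart muscle genes used further on.

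Among enzymes and metabolite carriers stood Slc25a34, a carrier of the inner mitochondrial membrane, which had the highest bound of the members that share no exon bases with another gene (chromosome 4, 141618824 to 141623821, minus strand, GRCm38). It had 653 and 421 reads in 6F libraries a and b, or 78.8 and 56.5 CPM, with 0 in both ADRC libraries, and was at least 103-fold higher. The next belonged to a family of liver and kidney cytochromes P450 that oxidise fatty acids. Cyp4f14 had 263 and 421 reads in 6F cells, with 0 in ADRCs, and was at least 65.9-fold higher. Cyp4a12a, known in mice for its expression in male kidney and liver, had 135 and 234 reads in 6F cells, with 0 in ADRCs, and was at least 35.5-fold higher. Both were higher in 6F library b than in 6F library a. Cyp2f2, a cytochrome P450 of airway club cells, had 77 and 44 reads in 6F cells and was at least 11.7-fold higher.

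The other enzymes act in mitochondria, membranes and epithelia. Car14, a carbonic anhydrase with its active site outside the cell, had 299 and 199 reads in 6F cells against 0 in ADRCs and was at least 47.97-fold higher. Adhfe1, a mitochondrial transhydrogenase of hydroxybutyrate, had 216 and 199 reads in 6F cells against 0 in ADRCs and was at least 39.98-fold higher. Its CPM were close in the 6F libraries, 26.1 and 26.7. Agxt2, a mitochondrial aminotransferase of kidney and liver, had 133 and 70 reads in 6F cells and was at least 19.6-fold higher. Gpx6, a glutathione peroxidase of the olfactory epithelium, had 36 and 96 reads in 6F libraries a and b and was at least 12.7-fold higher, or 6.59-fold on the lower 6F library alone. Gpx6 was the only one of the 11 to differ 2-fold or more between the 6F libraries. Got1l1, Gal3st3 and Tgm3, an aminotransferase relative, a sulfotransferase and a transglutaminase of skin and hair, had bounds of 12.1, 10.3 and 5.39.

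The 3 transcription factors were all higher in 6F library a. Lhx1, a LIM homeodomain factor of early embryo, kidney and neurons, had 237 and 41 reads in 6F libraries a and b, with 0 in ADRCs, and was at least 26.8-fold higher, or 8.34-fold on the lower 6F library alone. The 6F libraries differed 5.20-fold in its CPM. Gata1, the zinc finger factor of red cells and megakaryocytes, had 62 and 26 reads in 6F cells, with 0 in ADRCs, and was at least 8.48-fold higher, or 5.29-fold on the lower 6F library alone. Ascl5, a basic helix-loop-helix factor, had 46 and 23 reads in 6F cells over 567 bases of exon and was at least 6.65-fold higher.

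The cell surface receptors had a narrow range of bounds, from 8.28 to 17.6. Fgfr4, a receptor of fibroblast growth factors known for bile acid control in liver, had 67 and 116 reads in 6F cells, with 0 in ADRCs, and was at least 17.6-fold higher. Il13ra2, a receptor that binds interleukin 13, had 134 and 40 reads in 6F cells, with 0 in ADRCs, and was at least 16.8-fold higher, or 8.14-fold on the lower 6F library alone. Npy6r, of the neuropeptide Y receptor family, had 116 and 50 reads and was at least 15.99-fold higher, or 10.2-fold on the lower 6F library alone. Both were higher in 6F library a. Lyve1, the hyaluronan receptor of lymphatic endothelium and of some tissue macrophages, had 74 and 87 reads in 6F cells, with 0 in ADRCs, and was at least 15.5-fold higher. The others bind small molecules: P2ry4 is a nucleotide receptor, Ptger3 a prostaglandin E receptor, Hrh1 a histamine receptor and Chrm3 a muscarinic acetylcholine receptor. Their bounds were 11.6, 10.9, 8.96 and 8.28, from 86 to 120 reads over both 6F libraries, and that of Chrm3 was 5.49 on the lower 6F library alone.

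Secreted hormones, signals and plasma proteins had a median bound of 8.57 and 1 gene far above the rest. Prl7b1, a placental member of the prolactin family, had 471 and 185 reads in 6F libraries a and b, with 0 in ADRCs, and was at least 63.2-fold higher, or 37.6-fold on the lower 6F library alone. Its level per kilobase (kb) of exon was the highest of all members, 44.1 CPM per kb. Ghrh, the hypothalamic hormone that releases growth hormone, was uneven the other way, with 21 and 106 reads in 6F libraries a and b and 0 in ADRCs. It was at least 12.2-fold higher, or 3.84-fold on the lower 6F library alone. Oxt, the gene of oxytocin, had 47 and 30 reads in 6F cells, with 0 in ADRCs, and was at least 7.42-fold higher. Pcsk2, an enzyme that cuts prohormones in endocrine cells and neurons, had 43 and 27 reads in 6F cells and was at least 6.74-fold higher.

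The remaining secreted proteins were blood and tissue factors. Csf3, the granulocyte colony-stimulating factor, had 43 and 30 reads in 6F cells and was at least 7.03-fold higher. Wnt6, a Wnt ligand, had 54 and 43 reads and was at least 9.34-fold higher. Itih4, an inter-alpha-trypsin inhibitor heavy chain made by liver, had 37 and 71 reads in 6F cells and was at least 10.4-fold higher, or 6.77-fold on the lower 6F library alone. Clec3b encodes tetranectin, a plasminogen-binding protein, and Pi16 is known as a marker of some fibroblasts. With Wfdc1 and Olfml1, they had bounds of 5.59 to 9.44.

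Matrix and cell adhesion genes were uneven between the 6F libraries: 6 of the 7 differed 2-fold or more in CPM, 2 higher in 6F library a and 4 higher in 6F library b. Frem2, a protein of the basement membrane under epithelia, had 243 and 75 reads in 6F libraries a and b, with 0 in ADRCs, and was at least 30.6-fold higher, or 15.3-fold on the lower 6F library alone. Col13a1, a transmembrane collagen, had 30 and 159 reads in 6F libraries a and b, with 0 in ADRCs, and was at least 18.2-fold higher, or 5.49-fold on the lower 6F library alone. Adamtsl2, a matrix glycoprotein that binds fibrillin networks, had 20 and 154 reads in 6F libraries a and b, and was at least 16.8-fold higher, or 3.66-fold on the lower 6F library alone. These differences ran in both directions within the group. Egfl6, a matrix protein with EGF repeats, had 42 and 128 reads and was at least 16.4-fold higher, or 7.69-fold on the lower 6F library alone. Hmcn2, a hemicentin, and Col22a1, a collagen of tissue junctions, had bounds of 10.0 and 9.54, or 6.04 and 4.68 on the lower 6F library alone. Cdh4, an adhesion protein of retina and brain, had 53 and 45 reads and a bound of 9.44.

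The nervous system genes were the largest group with a named role, and 11 of the 14 were higher in 6F library a. Phyhip, a brain protein that binds phytanoyl-CoA hydroxylase, had 269 and 376 reads in 6F libraries a and b, with 0 in ADRCs, and was at least 62.1-fold higher. Fbxo2, an F-box protein that sends glycoproteins to degradation in neurons, had 247 and 201 reads in 6F cells, with 0 in ADRCs, and was at least 43.2-fold higher. Both were above the median level of tested genes in 6F cells, at 14.2 and 22.04 CPM per kb against 6.37. Synaptic and signalling genes followed at lower levels. Dgki, a diacylglycerol kinase, had 105 and 87 reads in 6F cells and was at least 18.5-fold higher. Svop, a synaptic vesicle protein, had 123 and 49 reads and was at least 16.6-fold higher, or 9.97-fold on the lower 6F library alone. Bex4 and the phosphatase subunit Ppp2r2c had bounds of 16.3 and 14.1, or 10.2 and 7.53 on the lower 6F library alone.

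Ion channels, transporters and receptors of neurons stood nearer to the minimum of the rule. Slc24a4, an exchanger of sodium for calcium and potassium, had 81 and 62 reads in 6F cells and was at least 13.8-fold higher. Gabra4, a subunit of the GABA-A receptor, had 63 and 39 reads and was at least 9.83-fold higher. Slc6a4, the serotonin transporter, had 34 and 28 reads and was at least 5.97-fold higher. These genes carry the signals of mature neurons. Grin2b, an NMDA receptor subunit, had 27 and 23 reads over 24842 bases of exon, the longest of the members, and was at least 4.82-fold higher. Nalcn, the sodium leak channel, had 21 and 25 reads and was at least 4.43-fold higher. The scaffold proteins Grid2ip and Lin7b and the small GTPase Rasd2 had bounds of 8.96, 7.13 and 5.49, and that of Lin7b was 4.68 on the lower 6F library alone.

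Among genes of germ cells, meiosis and cilia, Prnd had the most reads of all members. Prnd encodes doppel, a relative of the prion protein found in testis (chromosome 2, 131950861 to 131956130, plus strand). It had 1271 and 632 reads in 6F libraries a and b, with 0 in ADRCs, and shares 97.2% of its exon bases with Prn on the same strand. Prn had 108 and 25 reads in 6F cells and 7 and 9 in ADRCs, so how the reads of this locus divide between the 2 names is uncertain. Ccna1, the cyclin A of male meiosis, had 478 and 148 reads in 6F cells, with 0 in ADRCs, and was at least 60.3-fold higher, or 30.1-fold on the lower 6F library alone.

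Nlrp4f, of a family of oocyte proteins, was the least even member. It had 403 and 20 reads in 6F libraries a and b, an 18.1-fold difference in CPM, and its bound of 40.7 was 4.07-fold on the lower 6F library alone. Dmc1, the recombinase of meiosis, had 48 and 32 reads in 6F cells and was at least 7.71-fold higher. Ccdc65 and Dnah11, parts of motile cilia, had bounds of 11.1 and 8.19, and that of Ccdc65 was 6.10 on the lower 6F library alone. Pramef12, Spata19 and Tdrd5, known from the germ line, had bounds of 10.0, 7.32 and 5.97. Of the 9 genes, 8 were higher in 6F library a and 3 at least 2-fold so.

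The immune genes were few, and Dntt and Gbp8 stood near the minimum of the rule. H2-M1, a nonclassical class I histocompatibility gene, had 88 and 121 reads in 6F cells, with 0 in ADRCs, and was at least 20.1-fold higher. Dntt, the DNA polymerase that adds bases to antigen receptor genes in early lymphocytes, had 24 and 28 reads and was at least 5.01-fold higher. Gbp8, a guanylate-binding protein, had 28 and 21 reads and was at least 4.72-fold higher. All 3 were within a factor of 2 between the 6F libraries.

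Of the 19 protein-coding genes of other roles, Calcoco2 had the highest bound. Calcoco2, known in human as the autophagy receptor NDP52, had 588 and 107 reads in 6F libraries a and b, with 0 in ADRCs, and was at least 67.0-fold higher, or 21.8-fold on the lower 6F library alone. Frmd5, a FERM domain protein of cell junctions, had 423 and 170 reads in 6F cells, with 0 in ADRCs, and was at least 57.1-fold higher, or 34.6-fold on the lower 6F library alone. Clic5, of the chloride intracellular channel family, and Fcho1, which acts at the start of clathrin-coated pits, were at least 38.4-fold and 36.3-fold higher. They had 252 and 147 reads (Clic5) and 201 and 176 reads (Fcho1) in 6F libraries a and b. Snx31, a sorting nexin of the bladder lining, had 78 and 211 reads in 6F cells and was at least 27.8-fold higher, or 14.3-fold on the lower 6F library alone. Pak6, a kinase of the p21-activated family, had 158 and 92 reads and was at least 24.1-fold higher.

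The rest of these genes had bounds from 4.72 to 15.03. Tspan33, a tetraspanin, Kif6, a kinesin, and Ube2u, a ubiquitin-conjugating enzyme, stood at 15.03, 12.04 and 11.7. Rhbdl1, a rhomboid protease, Apol7b, an apolipoprotein L, and Rasal1, which turns off Ras, stood at 14.9, 14.7 and 9.63, or 6.92, 7.53 and 5.08 on the lower 6F library alone. Park2, the ubiquitin ligase parkin that marks damaged mitochondria, had 40 and 36 reads in 6F cells and was at least 7.32-fold higher. Rnf43, a ubiquitin ligase that removes Wnt receptors, and Bik, a killer protein of the BCL2 family, stood at 5.30 and 5.01. Vsig2, Smco2 and Mctp2 stood at 5.59, 4.82 and 4.72, and Tmem132b at 6.84, or 4.58 on the lower 6F library alone.

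The 31 genes with no assigned role held 3 of the 5 highest bounds. Gm20388 had 1360 and 524 reads in 6F libraries a and b, with 0 in ADRCs, and a bound of 181-fold, or 107-fold on the lower 6F library alone. BC030499 had 678 and 462 reads in 6F cells, with 0 in ADRCs, and was at least 110-fold higher. A630076J17Rik had 512 and 251 reads in 6F cells, with 0 in ADRCs, and was at least 73.5-fold higher. The first and the last of these share most of their exon bases with another gene. Gm19434 had 281 and 95 reads in 6F cells and was at least 36.2-fold higher, or 19.3-fold on the lower 6F library alone. The pseudogene Gm12619 had 182 and 27 reads in 6F libraries a and b and was at least 20.1-fold higher, or 5.49-fold on the lower 6F library alone. The other 26 had bounds from 4.14 to 25.05. They are Gm28037, Gm15675, E230016K23Rik, Gm45837, Gm10718, Gm5127, Gm15674, Gm11413, RP23-305G22.3, C130080G10Rik, 4933402N22Rik, 5031434C07Rik, 4930447F24Rik, Gm21738, Gm29050, 1810041L15Rik, 5330417C22Rik, Atcayos, Gm11613, Gm20441, D630023F18Rik, Gm4884, Gm7173, Gm13301, Gm11549 and Gm4951. Of these, Gm28037, Gm10718 and Gm11413 had bounds of 25.05, 15.03 and 10.3, or 16.8, 6.71 and 5.49 on the lower 6F library alone. The bounds of 4933402N22Rik, 4930447F24Rik and D630023F18Rik were 9.06, 8.96 and 6.94, or 5.12, 5.31 and 4.27 on the lower 6F library alone.

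Not every exon read can be given to 1 gene. Total exon reads may include reads that match more than 1 place in the genome. Unique exon reads were not used, so the part of such reads was not tested, also for members that share no exon bases with another gene. In the GENCODE annotation 31 members share exon bases with another gene and 88 with none, and the median bound was 12.04 in the 31 that share bases and 10.3 in the 88. The 20 highest bounds held 7 of the 31. For 11 members the other gene had more 6F reads, for 11 it had more than 3 ADRC reads, and for 11 it lay on the same strand. Over 50% of the exon bases were shared with 1 other gene for 8 members: A630076J17Rik, Gm13301, Gm20388, Gm20441, Gm28037, Gm45837, Prnd and Rhbdl1.

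The overlaps touch the top of the ranking. Gm20388 shares 97.5% of its exon bases with Galnt2, an enzyme that starts O-glycans, on the same strand, and Galnt2 had 566 and 922 reads in 6F cells against 468 and 465 in ADRCs. Gm28037 shares 79.2% of its exon bases with the ribosomal protein gene Rpl24, which had 2178 and 1714 reads in 6F cells against 696 and 909 in ADRCs. Gm45837 shares 95.6% with the phosphodiesterase gene Pde2a, which had 52 and 222 reads in 6F cells against 78 and 80 in ADRCs. In these 3 pairs the other gene was read in ADRCs, and how the reads of the shared exons were divided is uncertain. The same holds for Gm20441 and Rhbdl1. Gm20441 shares 69.3% with Gstt3 and 30.7% with Ddt on the same strand, which had 10 and 19 reads and 24 and 34 reads in ADRCs. Rhbdl1 shares 81.4% with Gm20683 on the same strand, which had 1 and 4 reads in ADRCs. Gm28037 also shares 20.8% with Zbtb11, which had 94 and 90 reads in ADRCs. A630076J17Rik shares 84.4% of its bases with Prok1 on the opposite strand, and Prok1 had 31 and 9 reads in 6F cells and 0 in ADRCs. Car14 shares 17.5% with Aph1a on the opposite strand, which had 894 and 703 reads in 6F cells against 226 and 272 in ADRCs. The library kit is not named as one that marks strand, and without strand the reads of a gene and its antisense partner cannot be told apart.

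**Figure D2:**
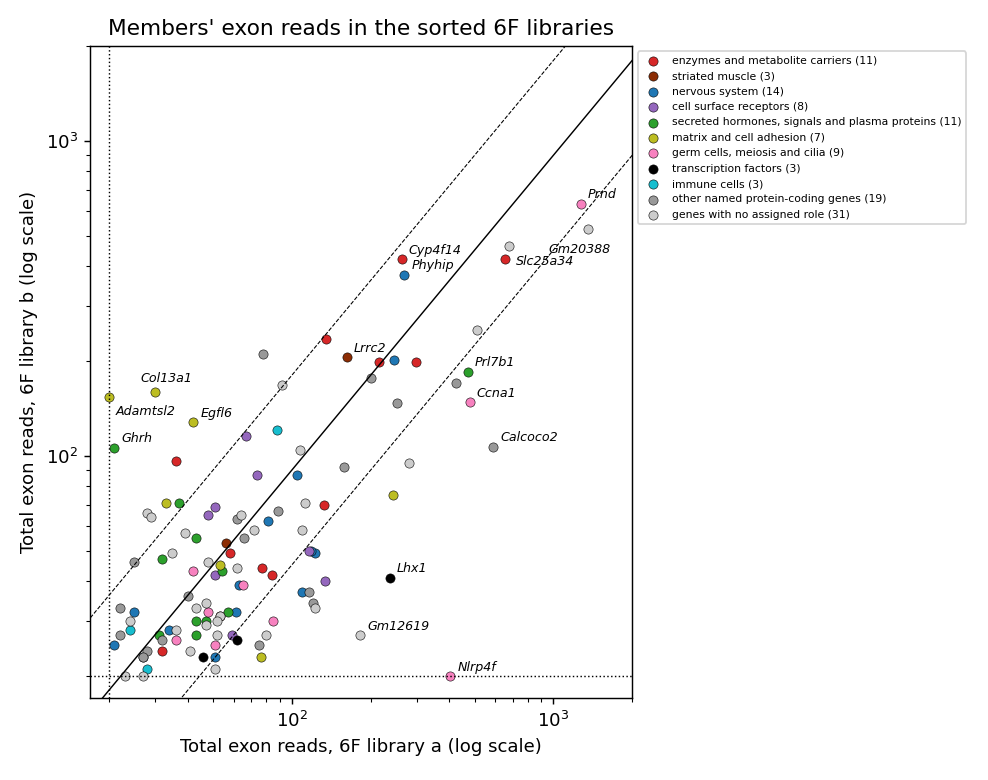
Total exon reads of each of the 119 members in 6F library b (vertical) against 6F library a (horizontal), both on log axes, coloured by known role with the number of members in brackets; the solid line marks equal CPM, the dashed lines a 2-fold difference, and the dotted lines the minimum of 20 reads. Nlrp4f lies farthest toward 6F library a and Adamtsl2 farthest toward 6F library b.

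A larger share of these genes than of others with as many reads differed between the 6F libraries. By CPM 80 members were higher in 6F library a and 39 in 6F library b, so 67.2% leaned toward 6F library a, against 50.9% of all genes with 20 or more reads in each. A difference of 2-fold or more was found for 36 members (30.3%), 24 higher in 6F library a and 12 higher in 6F library b, against 6.46% of the 9967 genes in the same range of reads. At 4-fold or more there were 7 members (5.88%), against 0.632% of those genes. These were Nlrp4f, Gm12619, Lhx1 and Calcoco2, higher in 6F library a, and Adamtsl2, Col13a1 and Ghrh, higher in 6F library b. At 40 to 99 pooled reads 11.5% of members and 8.02% of other genes differed 2-fold or more. At 100 to 199 reads it was 47.4% of members against 10.1%, and from 200 to below 2000 reads 41.4% of members against 4.87%. No test was made, since genes are not replicates.

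Leaving out 1 of the 6F libraries moved the bound by more than 1.5 times for 36 members, which include Chrm3 and Lin7b but not Gm28037 and Tmem132b, and by less for the other 83. Leaving out any one library of the 4, the lowest bound of a member was 1.89, and 100 of the 119 kept a bound of 3 or more. Without 6F library a, which leaves libraries of 1 lane label, the median bound was 9.15.

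The members' levels per length were below the usual level of tested genes. Their median was 2.80 CPM per kb of exon in 6F cells, against 6.37 CPM per kb for the 12573 tested genes, and 27 members lay above that value. Their exons were also shorter in sum, with a median of 2910 bases against 4155. The highest levels after Prl7b1 belonged to Prnd at 37.1, A630076J17Rik at 35.1 and Gm12619 at 33.2 CPM per kb. Slc25a34 stood at 25.3, Ccna1 at 21.1 and Cyp4f14 at 18.3 CPM per kb.

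How often a gene lacked ADRC reads differed with how much it was read in 6F cells. Of the 11565 genes with 20 or more reads in each 6F library, 1.05% had 0 ADRC reads. With 40 to 59 pooled 6F reads 4.60% did, with 60 to 99 reads 4.24%, with 100 to 199 reads 2.24%, with 200 to 399 reads 0.671%, with 400 to 999 reads 0.349% and with 1000 or more 0.154%. All genes with 40 to 59 pooled 6F reads had a median of 12 ADRC reads. Those with 100 to 199, the class that holds the members' median of 108, had a median of 39. The ADRC libraries had the lower depth for every class of genes, and the part of depth in these shares was not tested.

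**Figure D3:**
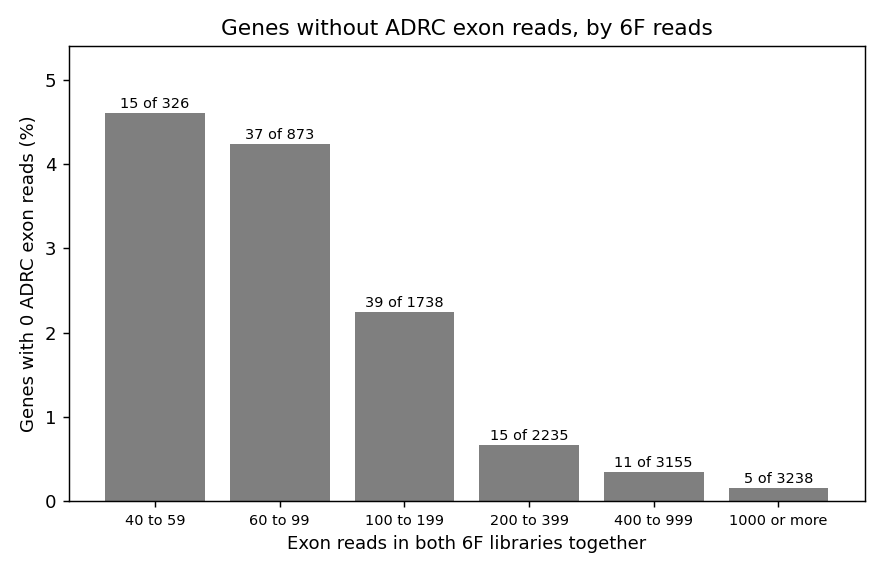
Percent of genes with 0 exon reads in both ADRC libraries (bars), among genes with 20 or more reads in each 6F library, by their pooled 6F exon reads; the numbers above the bars are genes with 0 ADRC reads of all genes in the class, before the 3 genes were dropped. The share is 4.60% at 40 to 59 reads and 0.154% at 1000 reads or more.

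The limits of the rule cut through a continuous range. Just inside stood Gm4951 with 23 and 20 reads, Gm11549 with 27 and 20, Adamtsl2 with 20 and 154, Nlrp4f with 403 and 20, and Nalcn with 21 and 25 in 6F libraries a and b. Just outside stood Mhrt, a long noncoding RNA of the Myh6 and Myh7 locus, with 120 and 19 reads in 6F cells and 0 in ADRCs. Gabrp had 80 and 19, Myo7b 35 and 19, Fbxw18 33 and 19, and Nanp 19 and 33 in 6F cells, all with 0 in ADRCs. In all, 54 genes had 0 ADRC reads and 15 to 19 reads in the lower 6F library. On the other side, 109 genes met the 6F minimum with 1 ADRC read and 146 with 2 or 3. The most read of those with 1 were Lmod3, which nucleates actin in muscle, with 1585 and 513 reads in 6F cells, and Kcnmb1, a subunit of a smooth muscle potassium channel, with 913 and 725. Muc19, Ikzf4 and Ryr3 followed with 1231 to 1484 reads over both 6F libraries. Lmod3, with more 6F reads than any member, was thus left out by 1 read.

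Many markers of tissues that the members are known from were little read. In 17 lists of cell type markers, 375 of the listed genes were in the table, and 138 had 0 ADRC reads. Of these 138, 69 had 0 reads in all libraries, 66 had 1 to 39 reads over both 6F libraries, and Lyve1 alone was a member. The other 2 were Cyp17a1, a steroid-making enzyme of gonads and adrenals, with 63 and 4 reads in 6F libraries a and b, and Nkg7, a granule protein of cytotoxic lymphocytes, with 18 and 40. In the list for liver, gut and pancreas, 17 of 32 genes had 0 reads in all 4 libraries, and the summed level was 20.5 and 28.3 CPM in 6F cells against 4.33 and 3.64 CPM in ADRCs. In the list for germ cells and gonads 11 of 26 had 0 reads in all, with 15.7 and 14.6 CPM in 6F cells against 7.22 and 4.45 CPM in ADRCs. Both lists were thus higher in sum in both 6F libraries, at a low level. The germ cell and gonad list includes Cyp17a1, whose 63 reads in 6F library a are a large part of the sum there. Only 1 gene of that list was tested, and 0 were called higher or lower. In the list for liver, gut and pancreas 2 genes were tested, with 1 called higher and 0 lower. The neuron list summed to 171 and 222 CPM in 6F cells against 216 and 204 CPM in ADRCs, so its groups overlap, and 4 of its 30 genes had 0 reads in all. Of its 9 tested genes 3 were called higher in 6F cells and 2 lower by edgeR, where 24.2% of all tested genes were called higher and 22.8% lower.

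Muscle markers stood at higher levels. Beside the counts that follow, 24.2% of all tested genes were called higher in 6F cells and 22.8% lower. A count near these shares is not read as a result about its list. Of 21 tested heart muscle markers 17 were called higher in 6F cells and 0 lower, with a median log2 fold change of 3.41 against 0.07 over all tested genes. The list summed to 5404 and 5764 CPM in 6F cells against 94.8 and 110.9 CPM in ADRCs. It includes Myh6, whose promoter the sort used, and transcription factors. The part of the sort and of the introduced factors, which the labels do not name, in these values was not tested. Of 17 tested smooth muscle and pericyte markers 10 were called higher and 1 lower, and of 9 tested skeletal muscle markers 4 were higher and 2 lower. All 20 stromal markers were read in both groups, and 5 were called higher and 9 lower in 6F cells. Of 11 tested adipocyte markers 6 were called higher and 4 lower, of 10 of surface epithelium 1 and 5, and of 8 of glia and neural crest 2 and 0. The lists for cartilage, bone and tendon, for lymphocytes and mast cells, for melanocytes and photoreceptors, and for kidney and lung had at most 6 tested genes each.

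Markers of other cells differed between the 6F libraries in part. The called counts here also stand beside 24.2% of all tested genes higher in 6F cells and 22.8% lower. The macrophage list summed to 14.1 and 153 CPM in 6F libraries a and b, against 364 and 400 CPM in ADRCs, with 0 of 14 tested genes higher and 6 lower, and 2 of its 20 genes at 0 in all. The endothelial list summed to 86.2 and 121 CPM in 6F cells against 81.4 and 79.3 CPM in ADRCs, with 4 of 13 tested genes higher and 2 lower, and 0 of its 21 genes at 0 in 6F cells. The mesothelial and epicardial list summed to 43.7 and 62.8 CPM in 6F cells against 90.98 and 103.6 CPM in ADRCs, with 0 of 3 tested genes higher and 2 lower. Within that list Msln had 1 and 29 reads in 6F libraries a and b, Upk3b 2 and 17, and Lrrn4 0 and 16, all with 0 in ADRCs. These 3 genes, named after their values were seen, thus had most of their reads in 6F library b. The part of these markers in the reads of Lyve1, of the matrix genes higher in 6F library b or of any other member was not tested.

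**Figure D4:**
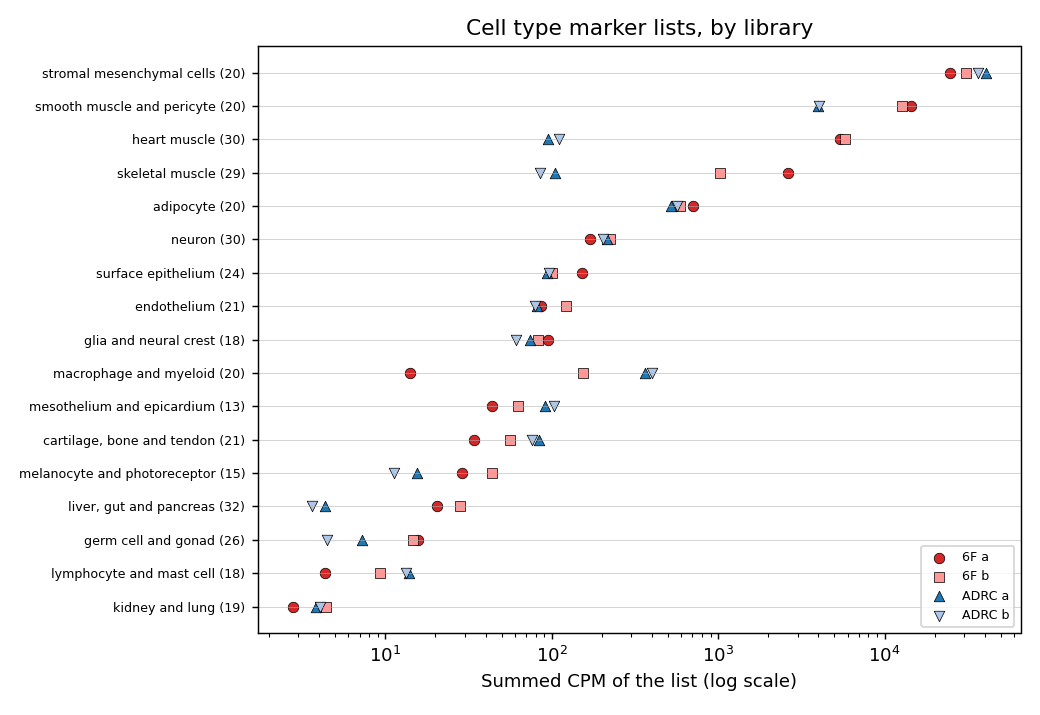
Summed CPM of each of the 17 cell type marker lists in each library (horizontal log axis), with the number of list genes in the table in brackets; circles and squares are 6F libraries a and b, and triangles are ADRC libraries. The macrophage list lies at 14.1 and 153 CPM in 6F libraries a and b, and the heart muscle list at 5404 and 5764 CPM in 6F libraries against 94.8 and 110.9 CPM in ADRC libraries.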

How the data were processed

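Total RNA depleted of ribosomal RNA was sequenced from 2 libraries of 6F cells and 2 of ADRCs, per the labels' protocols. The build GRCm38 comes from the submitters' processing notes. No source used here names the aligner or the counter. In the deposited table of 50600 genes, total exon reads are whole-number counts per library, per the file headers, and were used as deposited. The authors' comparison in it gives a fold (a score that is not a ratio of these counts) and p-values with a false discovery rate, per the file headers. A further 52 columns of per-library values were not used. Of all genes, 18045 had exon length 0 and 0 exon reads and were left out.

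Counts were scaled by TMM and tested with edgeR 4.0.16 in R 4.3.3 (filterByExpr, quasi-likelihood test, Benjamini-Hochberg adjustment over 12573 genes), to give the background. The procedure was tested on simulated data. All 119 members were found in GENCODE M21 on GRCm38, where 3 have another symbol (Park2, 1810041L15Rik and RP23-305G22.3), and 106 have a deposited start 1 lower and the same end. Positions are 1-based from GENCODE, and shared exon bases were computed from its exons.

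The members and the marker lists were chosen with earlier results of these data known. The naming rule took the 20 highest bounds, the 10 highest levels per kb, up to 6 members of each role by the smaller 6F count, members in a list, those at the limit of the rule and those that overlap a more read gene. It gave 70 members, and the others were named, after their values were seen, so that the members are accounted for; 1 member is not reported here. Alternatives were DESeq2 1.42.0, other scalings, filters and read minimums, and leaving out each library.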

Additional observations from a re-analysis of the deposited data

How the results depend on the processing

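The rule was met by 119 genes, by 116 with the minimum scaled to the smaller 6F library, by 256 with 10 reads and 41 with 50 reads in each 6F library, and by 228 with at most 1 ADRC exon read. Leaving out a library gave 167 (6F library a), 199 (ADRC library a), 236 (ADRC library b) and 250 genes (6F library b). Each set holds all 119 members by construction, since leaving out a library only removes a condition of the rule, and nothing is read from that. Of the members, 88 share no exon bases with another gene, an alternative chosen after seeing the data. The median bound of 10.4 was 12.2 on library size alone, 10.4 with DESeq2 size factors, 3.44 for the lower 6F library over a floor of 3 reads in the shallower ADRC library, and 4.75 to 10.8 with a library left out. The number of members called by edgeR was 118, was 119 with DESeq2 size factors, with library size, with no filter and by the DESeq2 Wald test, and was 86 to 103 with a library left out: all 100 tested without 6F library a, all 103 tested without 6F library b, and 96 and 86 of 119 without ADRC libraries a and b, where a lone library is assumed to vary like the other group. Entries of the marker lists called higher numbered 58 (37 to 71 with a library left out, 37 without ADRC library b) and those called lower 37 (14 to 56, with 14 without either ADRC library and 56 without 6F library b). The cause of these differences was not tested, beyond the fewer samples or the changed minimum. With no library left out, 24.2% of all 12573 tested genes were called higher and 22.8% lower. Tested entries were not summed over the marker lists, so nothing about the lists is read from the 58 and 37. Unique exon reads and ADRC intron reads, planned as alternatives, were not run. No paired analysis was possible because the data columns carry no replicate numbers.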
